A study of Arabidopsis thaliana with 12 samples.

Results

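Seedlings of the Arabidopsis thaliana mutant spch were compared with wild type (WT) seedlings of the same Col-0 ecotype on 6 of the 12 arrays of the series, 3 for each genotype, chosen by their labels. Stomata are pores of the plant epidermis, each framed by a pair of guard cells, and they arise from dividing precursor cells, the stomatal lineage. SPCH is the transcription factor that starts this lineage, MUTE acts later and FAMA later still, at the making of guard cells. The labels describe the epidermis of spch as made of pavement cells, the interlocking cells that cover a leaf, and nothing else. A pavement cell grows by expansion of its wall, which takes expansins, xyloglucan-modifying enzymes and glucanases, and it no longer divides once it has left the cell cycle.

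All seedlings were stratified for 2 days at 4 °C, grown at 21 °C in days of 18 h light and 6 h darkness, and harvested whole 5 days after germination, with their roots. No source used here gives the spch allele. The other 6 arrays held scrm-D, a dominant allele of the gene for the partner protein of SPCH, and scrm-D;mute, with 3 arrays each. They entered here through the shared estimate of the spread and through direct tests against spch. In whole seedlings, fewer cells of a type and less RNA per cell cannot be told apart.

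Each value is a log2 expression value of 1 probe set on 1 array, and a change is the spch mean minus the WT mean on that scale, with its standard error (SE). A gene was called, and is said to have risen or fallen, where limma gave an adjusted p under 0.05 over all 22746 probe sets tested. The medians of the 6 arrays lay between 6.39 and 6.50, and their values correlated with r from 0.986 to 0.995 within a genotype over all probe sets, which do not count as replicates. Values under 4.99, the 95th percentile of control probe sets whose transcript was not added, are called background here. The highest value of such an absent control was 6.61. Where 1 mean lay under that level, the fold was taken against it and is written as at least. The number of arrays limits the precision. The labels call the arrays biological replicates without saying how the plants were grown apart, so each p-value reflects the spread among these samples alone.

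Replicate 4 of spch stood apart from the other spch arrays. Its 25S rRNA control probe set read 11.04, against 8.66 and 9.19 on replicates 2 and 3 and 7.27, 7.50 and 6.56 on the WT arrays. Over the probe sets called higher, the median difference from the WT mean was 0.84 on this array, against 0.69 and 0.63 on the others. Over those called lower it was −0.85, against −0.61 and −0.67. Counts without this array, and some with the 25S rRNA value as a covariate, are given with the groups of genes.

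Between spch and WT, 4442 of 22746 probe sets were called (19.5%), 2183 higher (9.60%) and 2259 lower (9.93%). Without spch replicate 4 the numbers were 1501 higher and 1454 lower. With each array centred on its median they were 2468 and 1954, so which side held more calls depended on the scaling. Among the 13286 genes that could be named, each taken through 1 probe set, 8.19% were called higher and 9.09% lower, 17.3% in all, and these shares are the background against which each group below is set. Of the 4442 called probe sets, 2131 had no named gene, and the account below leaves them out. In 32.3% of named genes the 3 values of 1 genotype all lay above the 3 of the other. A member of a list or family is called measured where it is among these named genes. Other members may still have a probe set on the array, since 8794 probe sets had no gene listed. The genes lost and gained are described in turn by group: the lineage and cell division, the wall, pigments and other special products, and, among the gains, the breakdown of amino acids and fat, sugar conjugation of small molecules, and the plastid's own genes. Several groups were chosen after the values were seen. Of the measured genes for sugar conjugation 30 of 43 were not called, and of the plastid's own genes 60 of 69.

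**Figure D1:**
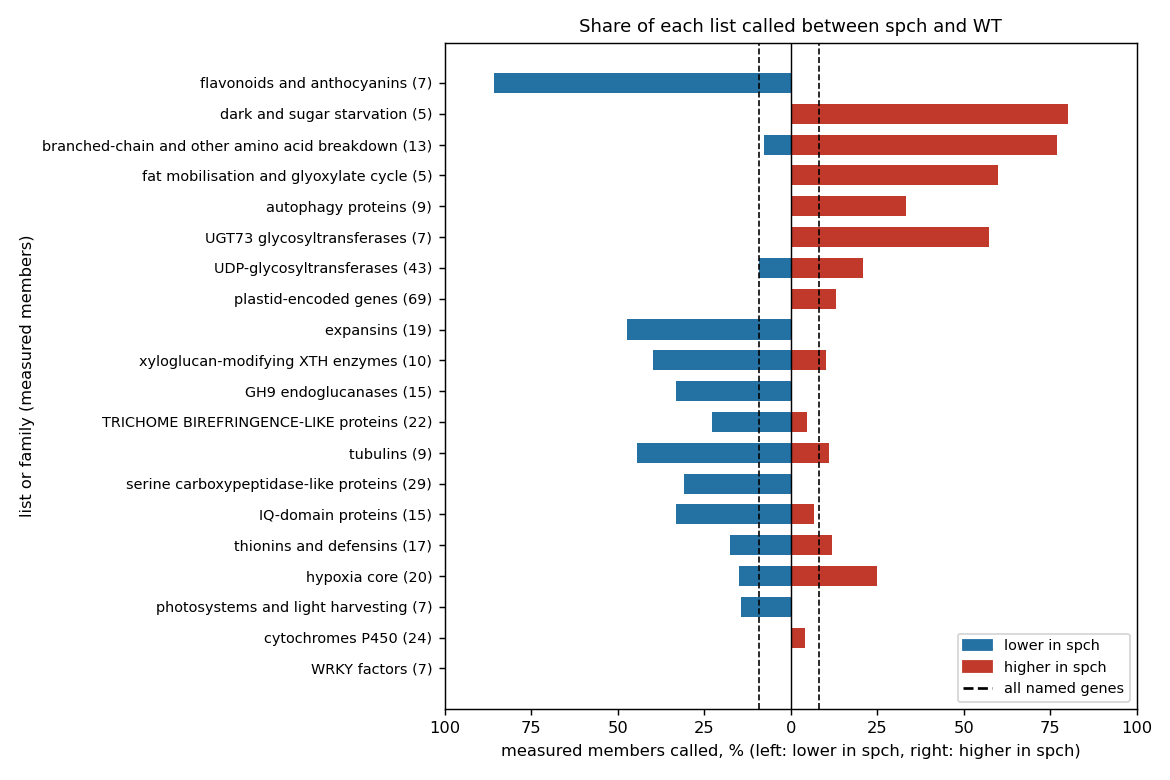
Share of the measured members of 20 gene lists and families that were called between spch and WT, in %, with the number of measured members in parentheses. Bars to the left are members called lower in spch and bars to the right members called higher, and the dashed lines mark the shares over all named genes, 9.09% lower and 8.19% higher. Of the flavonoid list 6 of 7 members lay to the left, and of the list of amino acid breakdown 10 of 13 lay to the right. The lists of amino acid breakdown and fat mobilisation were chosen after the values were seen. So were the UGT73, plastid-encoded, GH9, TBL and IQ-domain families, and the shares of all these are descriptions only.

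The mutated gene itself was low. SPCH (AT5G53210) read 6.15, 6.71 and 6.22 on the WT arrays and 5.41, 5.11 and 5.41 on the spch arrays. Every spch value lay below every WT value, and the spch values lay just above background. The change was −1.05 ± 0.23 (SE, adjusted p = 0.00726). No source used here says where the lesion lies relative to the probe set, so this level does not by itself check the label. MUTE (AT3G06120) read from 4.42 to 4.52 in WT and from 4.05 to 4.39 in spch, all in the range of background, so no difference could be measured.

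FAMA (AT3G24140), which directs the last step to guard cells, read 6.79, 6.84 and 7.07 in WT and 6.36, 6.12 and 5.64 in spch. It fell by 0.86 ± 0.18 (SE, adjusted p = 0.00493) and stayed above background on all 3 spch arrays. All 3 of these values lay under the highest absent control value, 6.61. SPCH and FAMA were the 2 called of 5 measured stomatal lineage regulators (26 listed), whose median change was −0.55. EPFL9 (AT4G12970), a peptide from the inner leaf that promotes stomata, read 7.59 on spch replicate 4 and from 8.86 to 9.20 on the other 5 arrays, with no call (−0.55 ± 0.40, adjusted p = 0.414).

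Of 3 measured guard cell genes (30 listed) 1 fell, with or without spch replicate 4. BLUS1 (AT4G14480), a kinase that lets blue light open stomata, read 6.95, 6.42 and 6.62 in WT and 6.10, 5.83 and 4.45 in spch. Only replicate 4 came under background, and the fall was 2.30-fold (adjusted p = 0.0218). The call ended without WT replicate 2 or 4 (adjusted p = 0.081 and 0.0525), and in a fit of the 6 arrays alone (adjusted p = 0.0652). AT1G22690, a further member of the guard cell list, read 9.70 and 9.64 on spch replicates 2 and 3 and 4.31 on replicate 4, against 10.38 to 10.86 in WT. Its change, −2.78 ± 1.08 (SE), was not called (adjusted p = 0.0976), though a block on the replicate number gave a call (adjusted p = 0.0463). With the block 2 of the 3 were thus called, and the remaining member, AT5G06970, gave 0.20 ± 0.13 (SE, adjusted p = 0.388). CHX20 (AT3G53720), a cation/proton exchanger of guard cell endomembranes that was singled out after its values were seen, read from 5.88 to 6.20 in WT and 5.47, 5.62 and 4.78 in spch. It fell by 0.76 ± 0.21 (SE, adjusted p = 0.0256), and was not called without spch replicate 4 (−0.50, adjusted p = 0.0951) or without WT replicate 3 or 4 (adjusted p = 0.070 and 0.0855). The CHX20 values of both genotypes all lay under the highest absent control value, 6.61.

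In the labels the epidermis of scrm-D is all guard cells, and the direct log2 difference, spch minus scrm-D, was −3.51 for FAMA, −4.55 for BLUS1 and −3.90 for CHX20 (adjusted p = 1.5e-07, 1.4e-06 and 2.1e-07). The labels describe the epidermis of spch as pavement cells alone. FAMA on all 3 spch arrays and AT1G22690 on replicates 2 and 3 still read above the background level. The FAMA values lay under the highest absent control value, 6.61, so the presence of its transcript in spch is not shown. Which cells gave these signals was not tested. With the 25S rRNA value as a covariate neither FAMA nor BLUS1 was called between spch and WT (adjusted p = 0.0825 and 0.256).

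Genes of cell division fell together. All 4 measured members of the G2 and mitosis list (35 listed) were called lower, against 9.09% of named genes, with a median change of −1.16, and 3 of the 4 were called without spch replicate 4. AUR1 (AT4G32830), an Aurora kinase of the mitotic spindle, read 8.14, 8.56 and 8.31 in WT and 7.05, 6.95 and 6.70 in spch. No spch array came near WT, and the fall was 2.71-fold (log2 change −1.44 ± 0.13 SE, adjusted p = 2.85e-05). AUR2 (AT2G25880), its close relative, read 8.48, 8.50 and 8.34 against 7.33, 7.32 and 6.55, a 2.59-fold fall (adjusted p = 0.000527). AUR3 (AT2G45490), the Aurora kinase of centromeres, fell by 0.54, a call that ended without spch replicate 4 (adjusted p = 0.0788), without spch replicate 2 and without WT replicate 3 or 4. AT4G14330, the remaining member, fell by 0.94 ± 0.17 (SE, adjusted p = 0.00204).

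Genes of DNA replication moved less. PRL (AT4G02060), a subunit of the helicase that opens DNA for replication, fell 1.56-fold and CENH3 (AT1G01370), a histone of centromeres, 1.64-fold, while ICU2 (AT5G67100), the catalytic subunit of DNA polymerase alpha, gave −0.38 (adjusted p = 0.214). Without spch replicate 4 none of the 3 was called by limma, and without WT replicate 3 CENH3 was not called either (adjusted p = 0.0721). Further division genes, singled out after their values were seen, kept their calls without any single WT or spch array. UBC20 (AT1G50490), a ubiquitin-conjugating enzyme of dividing cells, fell 2.03-fold from 9.14, 9.44 and 9.33 to 8.45, 8.28 and 8.12. POLA3 (AT5G41880), a primase subunit, fell by 0.66 ± 0.10 and BUB3.1 (AT3G19590), of the spindle checkpoint, by 0.75 ± 0.14 (SE, adjusted p = 0.000624 and 0.00273). 3xHMG-box2 (AT4G23800), a protein of mitotic chromosomes, fell by 0.99 ± 0.24 (SE, adjusted p = 0.0111).

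These division transcripts stayed well above background in spch, between 6.70 and 7.05 for AUR1 and between 8.12 and 8.45 for UBC20. Whole seedlings also hold root and shoot meristems, and SIM (AT5G04470), which drives the endocycle in place of division, gave 0.18 (adjusted p = 0.615). Against scrm-D;mute, the genotype the labels describe as nearly all meristemoids, the lineage's dividing cells, the log2 difference of spch was −2.29 for AUR1 and −2.88 for 3xHMG-box2 (adjusted p = 1e-07 and 1.8e-06).

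**Figure D2:**
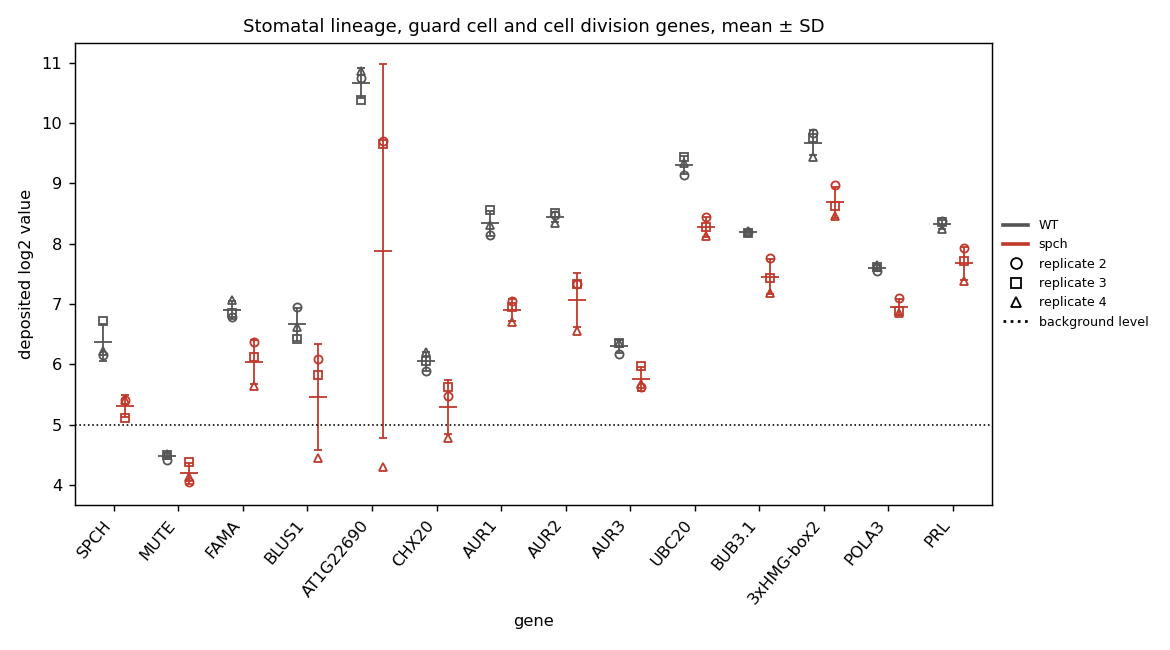
Deposited log2 values of 14 stomatal lineage, guard cell and division genes on the 3 WT and 3 spch arrays, with symbols for replicates 2, 3 and 4 and bars for the mean ± SD, and the background level of 4.99 dotted. AT1G22690 spans from 4.31 to 9.70 on the spch arrays, whereas for AUR1 the 3 spch values lie between 6.70 and 7.05, all below the WT values.

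Among genes of the plant wall, falls outnumbered rises in 5 families, although most members were not called, and 0 of 3 measured extensins and proline-rich proteins were called by limma. Of 19 measured expansin genes, whose proteins loosen walls during growth, 9 fell and none rose in limma's test, with 10 lower and 0 higher at an unadjusted p under 0.05 and a median change of −0.45 against −0.00496 over all named genes. Without spch replicate 4 the number that fell was 6. EXPA4 (AT2G39700) read 10.51, 10.67 and 10.34 in WT and 8.36, 8.08 and 7.80 in spch. The groups lay far apart, and the fall was 5.40-fold (log2 change −2.43 ± 0.18 SE, adjusted p = 6.11e-06). EXPB3 (AT4G28250), a beta-expansin, read from 10.53 to 10.72 in WT and 8.60, 8.49 and 6.42 in spch, and its change of −2.76 was −2.05 without spch replicate 4 (adjusted p = 7.43e-05).

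EXLB1 (AT4G17030), an expansin-like protein, fell 3.75-fold, EXPA15 (AT2G03090) 3.45-fold and EXPB1 (AT2G20750) 3.17-fold. EXPA18 (AT1G62980) and EXPA7 (AT1G12560), which act in root hairs and were the 2 measured of 10 root hair markers, fell at least 2.86-fold and 1.89-fold. EXPA7 lost its call when any single array of the 6 was left out (adjusted p from 0.0652 to 0.148). The part of the root in the other falls was not tested.

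Among 10 measured XTH genes, for enzymes that cut and rejoin xyloglucan, 4 fell and 1 rose, with or without spch replicate 4. XTH19 (AT4G30290) read 7.98, 7.76 and 7.81 in WT and 6.44, 6.30 and 5.69 in spch, a 3.26-fold fall (adjusted p = 0.000405). XTH20 (AT5G48070) fell by 1.59 on the log2 scale, XTH16 (AT3G23730) 2.09-fold and XTH32 (AT2G36870) 1.78-fold. The gene that rose, EXGT-A3 (AT2G01850), another xyloglucan endotransglycosylase, went from 10.77, 10.29 and 10.88 to 11.78, 11.77 and 11.90. All 3 of its spch values lay above its WT values (2.25-fold higher, adjusted p = 0.00196). The XTH16 call ended without WT replicate 3 (adjusted p = 0.0541).

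Of 15 measured GH9 endoglucanase genes, for enzymes that trim cellulose and related glucans, 5 fell and none rose in limma's test, with 0 higher at an unadjusted p under 0.05, and 4 fell without spch replicate 4. This family was chosen after the values were seen, so its count is a description. GH9B8 (AT2G32990) read 7.77, 8.07 and 7.42 in WT and 5.43, 5.57 and 4.70 in spch, a 5.73-fold fall (adjusted p = 3.53e-05). GH9C2 (AT1G64390) fell 4.56-fold, or by 1.70 on the log2 scale without spch replicate 4. GH9B13 (AT4G02290) fell by 0.98, GH9C1 (AT1G48930) by at least 0.82 and GH9B7 (AT1G75680) by 0.61, the last not called without spch replicate 4 (adjusted p = 0.0540).

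Among 22 measured TBL genes, a family that includes acetyltransferases of wall polysaccharides, 5 fell and 1 rose, or 4 and 1 without spch replicate 4. This family too was chosen after the values were seen. TBL36 (AT3G54260) fell 3.94-fold, from 8.49, 8.65 and 8.29 to 6.54, 6.42 and 6.54. TBL26 (AT4G01080) fell 3.27-fold, with 5.22 on spch replicate 4 against 6.84 and 6.70. TBL37 (AT2G34070) rose 3.26-fold, from 7.64, 7.66 and 7.75 to 9.29, 9.34 and 9.54 (adjusted p = 2.61e-05). PME61 (AT3G59010), a pectin methylesterase, was the 1 call among 4 measured genes for pectin-modifying enzymes, with a fall of at least 1.65-fold (adjusted p = 9.67e-05).

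**Figure D3:**
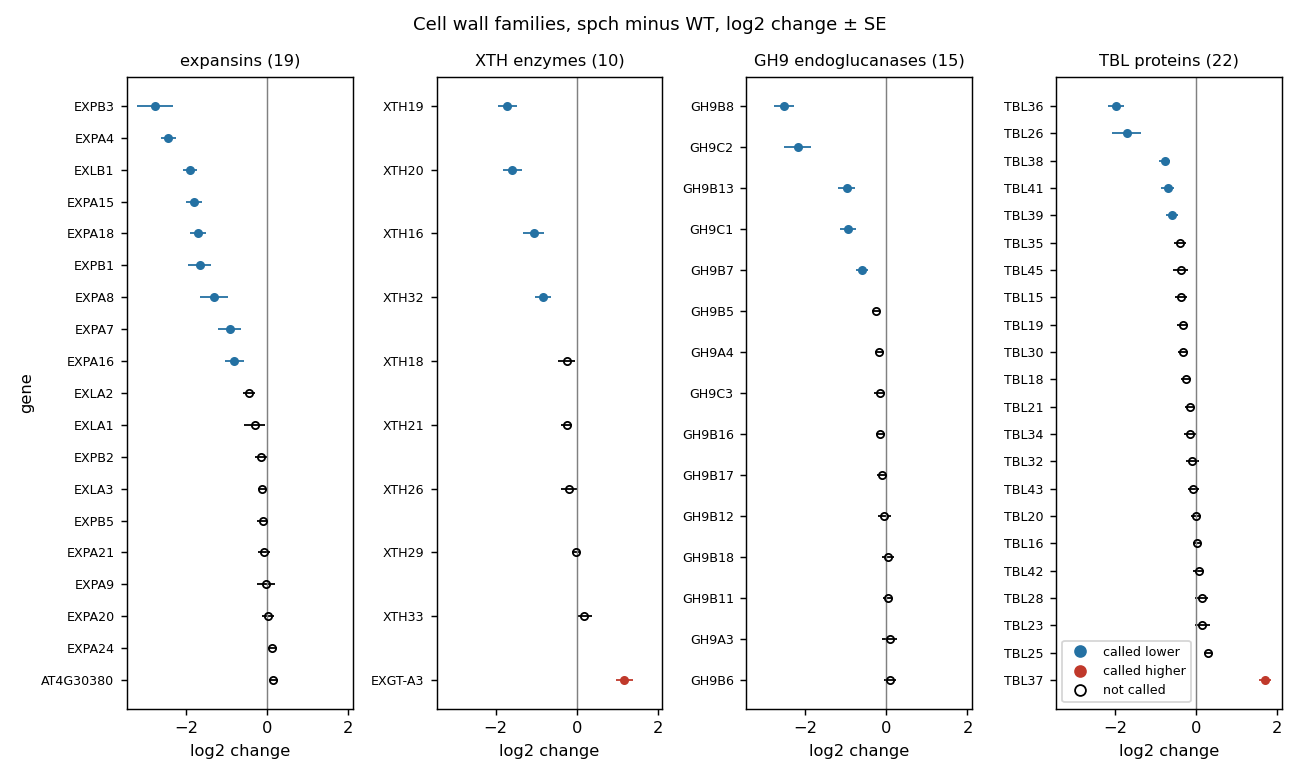
Log2 change ± SE, spch minus WT, for the measured members of 4 cell wall families (19 expansins, 10 XTH, 15 GH9 and 22 TBL genes), with filled symbols for called genes. EXPB3, at −2.76, lies farthest to the left, and EXGT-A3 and TBL37 are the called genes to the right, at 1.17 and 1.71.

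Direct tests separated some of these genes, and not others, from the other mutants. The log2 difference of spch from scrm-D and from scrm-D;mute was −1.94 and −1.52 for EXPA4 (adjusted p = 8.9e-06 and 3.6e-05), and −2.79 and −2.20 for XTH19 (adjusted p = 4.8e-06 and 1.7e-05). For EXLB1 the same tests gave −0.41 and 0.22 and for XTH20 −0.35 and −0.16, none of them called (adjusted p from 0.092 to 0.67). Over all expansins, 8 were lower and 1 higher in spch than in scrm-D, where 13.9% of named genes were lower and 12.7% higher. Against scrm-D;mute 6 were lower and 1 higher, where the shares were 16.5% and 13.6%. EXPA8 (AT2G40610) was the gene on the other side in both tests, 2.32 and 2.37 higher in spch. It nevertheless fell from WT to spch by 1.32, a call that ended without spch replicate 4 or WT replicate 2 or 3 (adjusted p from 0.0701 to 0.0734). Against scrm-D, 3 XTH, 5 GH9 and 5 TBL genes were lower in spch and 1, 0 and 4 higher. Against scrm-D;mute 2, 3 and 4 were lower and 2, 1 and 4 higher. The median differences from scrm-D were −0.48 for expansins, −0.36 for XTH, −0.15 for GH9 and −0.08 for TBL genes. From scrm-D;mute they were −0.04, −0.12, −0.02 and 0.02.

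Tubulin genes went both ways. Of 9 measured tubulin genes 4 fell and 1 rose. TUA1 (AT1G64740), an alpha-tubulin known from pollen, rose from 8.25, 8.28 and 8.52 to 9.88, 9.80 and 9.86. It was 2.84-fold higher than in WT (adjusted p = 5.54e-06) and by 1.63 and 1.54 higher than in scrm-D and scrm-D;mute (adjusted p = 7.8e-07 and 5.2e-07). TUB1 (AT1G75780), a beta-tubulin, fell 2.24-fold, TUB5 (AT1G20010) 1.61-fold, TUB7 (AT2G29550) 1.70-fold and TUA6 (AT4G14960) 1.38-fold. Without spch replicate 4 the calls of TUB7 and TUA6 ended, which left 2 that fell, and TUB7 was not called without WT replicate 3 (adjusted p = 0.0542). Among 15 measured IQ-domain genes, whose proteins tie calmodulin to microtubules and membranes, 5 fell and 1 rose. Without that array 2 fell and none rose, with the 25S rRNA value as a covariate 1 fell and none rose, and the family was chosen after the values were seen. IQD21 (AT3G49260, listed as iqd21) went from 8.70, 8.70 and 8.08 to 7.68, 7.55 and 6.59, a 2.33-fold fall (adjusted p = 0.00673).

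Pigment genes fell together. Of 7 measured flavonoid and anthocyanin genes (24 listed) 6 fell and none rose in limma's test (0 higher at an unadjusted p under 0.05), with a median change of −1.75, and 4 fell without spch replicate 4. DFR (AT5G42800), the enzyme that commits flavonoids to anthocyanins, read 9.55, 9.27 and 8.43 in WT and 6.19, 6.34 and 4.77 in spch (9.99-fold lower, adjusted p = 0.00015). AT5MAT (AT3G29590), which attaches malonate to anthocyanins, fell 3.36-fold, UF3GT (AT5G54060), which adds a sugar to them, 5.51-fold, and AT4G14090, another listed member, 6.53-fold. CHIL (AT5G05270), a chalcone isomerase-like protein, and UGT78D1 (AT1G30530), a rhamnosyltransferase of flavonols, fell 2.23-fold and 2.29-fold, and neither was called without spch replicate 4 (adjusted p = 0.0611 and 0.0859). The CHIL call also ended without WT replicate 2 or 3 and the UGT78D1 call without any 1 WT array. UGT78D2 (AT5G17050), a glucosyltransferase of the same pathway, gave −0.53 (adjusted p = 0.109), and a block on the replicate number gave a call (adjusted p = 0.00484).

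Of the flavonoid genes, DFR, UF3GT, AT5MAT and AT4G14090 averaged below WT in both other mutants as well. DFR differed by −0.57 between spch and scrm-D and by 0.66 between spch and scrm-D;mute, with no call (adjusted p = 0.33 and 0.25), and limma called 0 of the 7 genes between spch and scrm-D, with 0 at an unadjusted p under 0.05 as well. Between spch and scrm-D;mute 2 of the 7 were lower in spch, with differences of −1.52 for CHIL and −1.19 for UGT78D1 (adjusted p = 0.00175 and 0.0205). DFR read from 6.08 to 6.56 in scrm-D and from 4.53 to 5.41 in scrm-D;mute, against 8.43 to 9.55 in WT. With the replicate block DFR was called in both tests (adjusted p = 0.0375 and 0.0177), so equal levels are not shown.

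Glucosinolates, sulfur-rich defence compounds of this plant family, were represented by 3 genes, of which 2 fell, with or without spch replicate 4, and 0 with the 25S rRNA value as a covariate. BCAT4 (AT3G19710), the first enzyme of methionine chain extension, read from 11.33 to 11.54 in WT and 9.90, 10.02 and 6.14 in spch. Replicate 4 lay far under both other spch arrays, which in turn lay below all WT arrays. Its change was −2.72 in all (adjusted p = 0.0217) and −1.45 without replicate 4 (adjusted p = 0.000342), and the call ended without any 1 of the WT arrays (adjusted p up to 0.0615). UGT74B1 (AT1G24100), which glucosylates the glucosinolate core, fell 2.04-fold. GTR1 (AT3G47960), a glucosinolate transporter singled out after its values were seen, fell by 0.71, a call lost without spch replicate 4 or WT replicate 2 (adjusted p = 0.062 and 0.0789).

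In the serine carboxypeptidase-like family, whose members process peptides or acylate small molecules, 9 of 29 measured genes fell and none rose in limma's test (0 higher at an unadjusted p under 0.05), or 6 without spch replicate 4. The gene listed as scpl31 (AT1G11080) read 6.84, 7.26 and 5.77 in WT and 4.66, 4.52 and 4.34 in spch, a fall of at least 3.10-fold (adjusted p = 0.000471), with all spch values in the background. The gene listed as scpl35 (AT5G08260) fell 2.14-fold from 10.21, 10.24 and 10.45, and SCPL45 (AT1G28110) 1.90-fold from 8.56, 8.67 and 8.34. The family median was −0.26, and 20 members were not called.

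Small defence peptides went both ways, with 2 of 17 measured thionins and defensins higher and 3 lower, beside 8.19% and 9.09% of named genes. Without spch replicate 4 the numbers were 2 and 2. PDF2.1 (AT2G02120) fell from 8.29, 9.61 and 7.55 to 5.26, 4.98 and 4.89 (10.9-fold, adjusted p = 0.000668). PDF1.4 (AT1G19610) rose from 4.60, 4.58 and 5.07 to 6.11, 6.21 and 7.23, and THI2.2 (AT5G36910) from 9.58, 9.59 and 10.07 to 11.27, 11.40 and 10.64. THI2.2 lay 4.96 and 5.44 above its levels in scrm-D and scrm-D;mute (adjusted p = 2e-07 and 2.8e-08). None of the 7 WRKY factors matched here, regulators of defence, was called by limma (range −0.33 to 0.32), with 0 at an unadjusted p under 0.05. WRKY genes without a matching name were not counted.

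Genes of cytokinin and auxin signalling had few measured members, of which 1 of 2 cytokinin response and 2 of 3 auxin response genes fell. In the Aux/IAA and auxin-responsive family 1 of 7 measured genes fell and 6 were not called, with a median change of −0.04. ARR16 (AT2G40670), a response regulator raised by cytokinin, fell at least 1.42-fold and IAA29 (AT4G32280), an auxin response repressor, 1.62-fold (adjusted p = 0.00799 and 0.00393). GH3.3 (AT2G23170), which conjugates auxin to amino acids, fell by 0.80, a call that ended without 5 of the 6 arrays in turn (adjusted p up to 0.163). IAGLU (AT4G15550), which conjugates auxin to glucose, rose 3.49-fold, from 7.96, 7.79 and 7.85 to 9.72, 9.53 and 9.76 (adjusted p = 2.2e-06). Every spch value of IAGLU lay above every WT value.

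Genes that take apart amino acids and fat were among the gains. These lists were drawn up after the values were seen, apart from the starvation list, so their counts are descriptions. Of 13 measured genes of amino acid breakdown (24 listed) 10 rose and 1 fell, with a median change of 1.14, against 8.19% of named genes called higher. Without spch replicate 4, 9 rose. Of 5 measured genes of the dark and sugar starvation list (22 listed) 4 rose with or without that array, and 3 of these, IVD, MCCA and MCCB, belong to both lists.

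Leucine breakdown led. IVD (AT3G45300), isovaleryl-CoA dehydrogenase, read 7.33, 6.81 and 6.94 in WT and 9.84, 9.80 and 10.36 in spch. All 3 spch arrays lay far above all WT arrays, a 7.86-fold rise (log2 change 2.97 ± 0.18 SE, adjusted p = 2.2e-06). MCCA (AT1G03090), 1 of the subunits of the carboxylase that acts next, read 7.54, 7.06 and 6.76 against 9.81, 9.74 and 10.69 (7.80-fold, adjusted p = 1.32e-05). Its partner subunit MCCB (AT4G34030) rose 2.20-fold, and AT2G26800, a further listed member, 2.23-fold.

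The electrons that such dehydrogenases release pass through a flavoprotein and its oxidoreductase to the respiratory chain. ETFQO (AT2G43400), the oxidoreductase, rose from 7.15, 6.99 and 7.46 to 8.71, 8.74 and 9.68 (3.58-fold, adjusted p = 0.000145). D2HGDH (AT4G36400), a dehydrogenase that feeds the same flavoprotein, rose 1.99-fold from WT values of 7.14 to 7.15. The subunits of the flavoprotein itself, ETFALPHA (AT1G50940) and ETFBETA (AT5G43430), gave −0.18 and −0.11 with no call (adjusted p = 0.593 and 0.732). The calls thus lay in the enzymes before and after the flavoprotein.

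LKR (AT4G33150), the bifunctional enzyme of lysine breakdown, rose from 6.42, 6.63 and 6.77 to 8.67, 8.41 and 9.54 (4.82-fold, adjusted p = 0.000255). ALDH6B2 (AT2G14170), of valine breakdown, rose 1.67-fold, MGL (AT1G64660), which cleaves methionine, 2.73-fold, and DELTA-OAT (AT5G46180), of ornithine breakdown, 1.64-fold. The last was not called without spch replicate 4 or without any 1 of 4 other arrays (adjusted p up to 0.148). AT5G09300, the member that fell, gave −0.53 and was not called without WT replicate 3 or spch replicate 2.

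Of 5 measured genes of fat mobilisation and the glyoxylate cycle (20 listed) 3 rose, with or without spch replicate 4. SDP1 (AT5G04040), the lipase that opens seed oil reserves, read 7.83, 7.43 and 7.74 in WT and 8.91, 8.75 and 9.61 in spch (2.68-fold, adjusted p = 0.000576). ICL (AT3G21720), isocitrate lyase of the glyoxylate cycle, read 4.81, 5.29 and 5.21 against 6.49, 6.62 and 8.19 (3.98-fold, adjusted p = 0.00231). In WT its transcript lay near background, and in spch it lay above it on every array. PPDK (AT4G15530), which makes phosphoenolpyruvate from pyruvate, rose 5.59-fold, from 7.69, 7.21 and 7.23 to 9.61, 9.60 and 10.37. AIM1 (AT4G29010), of fatty acid beta-oxidation, gave −0.07 (adjusted p = 0.773).

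AKINBETA1 (AT5G21170), a subunit of the SnRK1 kinase that senses low energy, rose 2.76-fold, from 8.22, 7.77 and 8.50 to 9.39, 9.29 and 10.21. BZIP53 (AT3G62420), a transcription factor of the starvation response, gave −0.16 (adjusted p = 0.372). Among 9 measured autophagy genes, whose proteins coat the vesicles that recycle cell contents, 3 rose and none fell in limma's test, with 1 lower at an unadjusted p under 0.05. Without spch replicate 4, 2 rose and 1 fell, ATG8G (AT3G60640), at −0.39 (adjusted p = 0.0479, against −0.32 and 0.0609 with it). ATG8B (AT4G04620) rose 2.45-fold and ATG8E (AT2G45170) 2.01-fold, and ATG8F (AT4G16520) by 0.53, a call lost without spch replicate 4 or WT replicate 4 (adjusted p = 0.0708 and 0.0588). Of 17 measured sugar carriers 2 rose and 2 fell, or 1 and 1 without spch replicate 4, beside 8.19% and 9.09% of named genes. The family thus showed no gain as a whole. SWEET2 (AT3G14770), a carrier of the vacuole membrane, rose 4.09-fold, from 8.77, 8.39 and 9.13 to 10.73, 10.81 and 10.85 (adjusted p = 9.13e-06).

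**Figure D4:**
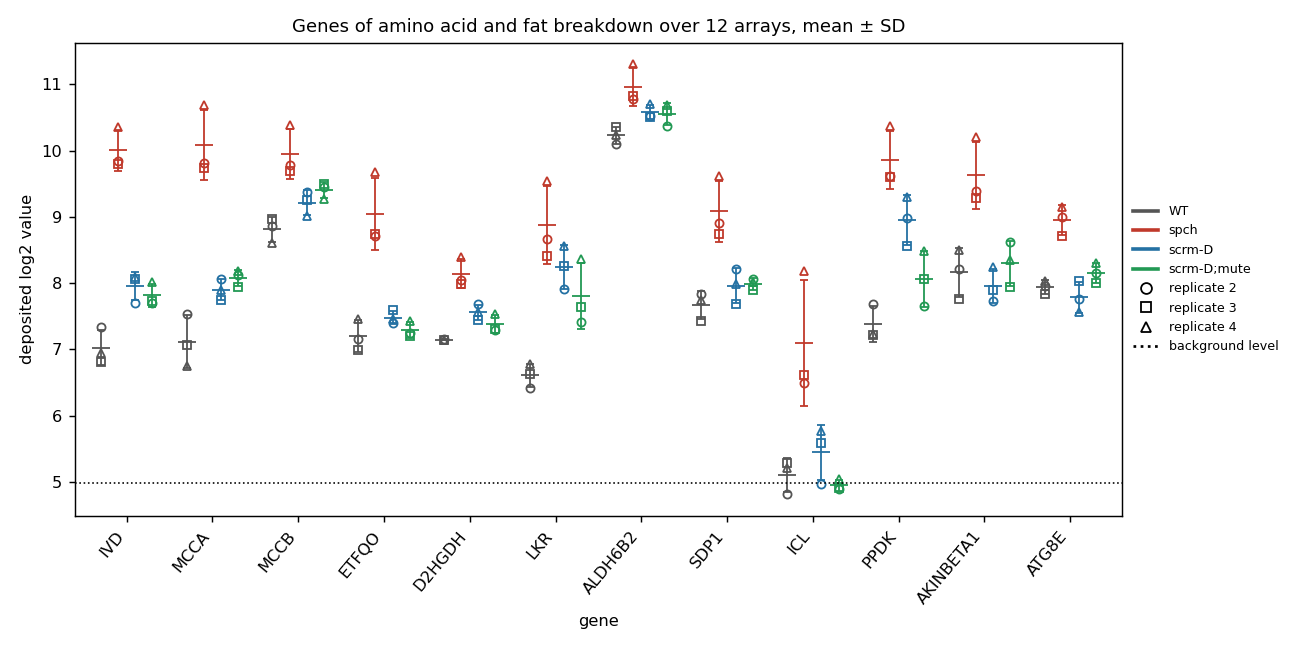
Deposited log2 values of 12 genes of amino acid and fat breakdown, energy sensing and autophagy over the 12 arrays, with bars for the mean ± SD (n = 3 in each genotype) and symbols for the replicates. The spch values of IVD, from 9.80 to 10.36, lie above those of the other genotypes, and spch replicate 4 is the highest spch array for each gene shown.

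Some of these rises also separated spch from the other mutants. The direct tests use the same spch arrays as the comparison with WT, whose values were known when the lists of breakdown genes were drawn up. Their counts are therefore descriptions and no separate support. For IVD, spch lay 2.05 above scrm-D and 2.18 above scrm-D;mute (adjusted p = 7.3e-06 and 2.1e-06), for MCCA 2.18 and 2.00, and for ETFQO 1.56 and 1.75, all called. SDP1 lay 1.12 and 1.10 higher (adjusted p = 0.0013 and 0.0012). Of the 5 measured genes of fat mobilisation and the glyoxylate cycle, 3 were higher and 1 lower in spch in both direct tests. Of the amino acid breakdown list, 6 of 13 members were higher in spch than in scrm-D and none lower, where 12.7% and 13.9% of named genes were. Against scrm-D;mute 9 were higher and 2 lower, with 13.6% and 16.5% over named genes. MGL ran the other way against scrm-D, at −0.77 with no call (adjusted p = 0.13).

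In each of the called breakdown genes shown in the plot over 12 arrays, spch replicate 4 was the highest spch array, and this array also had the highest 25S rRNA control. With the 25S rRNA value as a covariate 8 of the 13 members still rose. IVD then gave 3.01 (adjusted p = 7.37e-05) and ICL 1.73 (adjusted p = 0.0372), whereas MGL gave 0.66 and was not called (adjusted p = 0.199). No other measure of RNA quality was tested.

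Genes for recycling nitrogen and handling aldehydes and one-carbon units rose beside them, singled out after their values were seen. AAH (AT4G20070), which releases ammonium from allantoate, rose 2.64-fold, and GAT1_2.1 (AT1G15040), a glutamine amidotransferase-like protein, 4.68-fold, though a further probe set of GAT1_2.1 gave 0.09 (adjusted p = 0.704). ALDH7B4 (AT1G54100), an aldehyde dehydrogenase, rose from 9.53, 9.38 and 8.95 to 11.24, 11.15 and 11.99 (4.51-fold). FDH (AT5G14780), formate dehydrogenase, rose 4.00-fold, and AER (AT5G16970), an alkenal reductase, 3.39-fold. FDH was also high in scrm-D, where it differed from spch by 0.24 (adjusted p = 0.5), with 11.28 to 11.84 in scrm-D against 11.50 to 12.30 in spch.

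Among enzymes that attach sugars to small molecules, calls higher outnumbered calls lower, although the family as a whole hardly shifted. Of 43 measured UDP-glycosyltransferase genes 9 rose and 4 fell, beside 8.19% and 9.09% of named genes. The family median was 0.04, with 23 of the 43 above 0. Without spch replicate 4 the numbers were 7 and 3, and with the 25S rRNA value as a covariate 5 and 2. The UGT73 group, which acts on hormones, flavonoids and foreign compounds, was split off after its values were seen, and 4 of its 7 measured members rose (median change 1.01), 3 without spch replicate 4 and 2 with the 25S rRNA value as a covariate. UGT73B1 (AT4G34138) read 7.55, 7.31 and 7.25 in WT and 9.62, 9.34 and 9.56 in spch (4.40-fold, adjusted p = 2.01e-05). UGT73C1 (AT2G36750) rose at least 3.01-fold, from background to 6.33, 5.73 and 7.69. UGT73B4 (AT2G15490) rose 2.76-fold and UGT73B5 (AT2G15480) 2.01-fold, the last not called without spch replicate 2 or 4 or WT replicate 2 or 4 (adjusted p from 0.0605 to 0.104).

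UGT87A2 (AT2G30140) rose 4.82-fold over WT, from 7.88, 7.71 and 7.91 to 9.91, 9.74 and 10.66, but averaged 10.16 ± 0.14 in scrm-D and 10.19 ± 0.18 in scrm-D;mute (SD, n = 3), and its differences of −0.05 and −0.09 from them were not called. For UGT73C1, by contrast, spch lay 2.14 and 2.28 above the other mutants (adjusted p = 0.00072 and 0.00034). UGT72E1 (AT3G50740), a glucosyltransferase of lignin precursors, fell 2.22-fold. BGLU45 (AT1G61810) and BGLU46 (AT1G61820), glucosidases that release such precursors, rose at least 1.88-fold and 3.44-fold. Of 20 measured beta-glucosidase genes 2 rose and 3 fell, beside 8.19% and 9.09% of named genes. Of 12 measured glutathione transferases, which conjugate reactive compounds, 1 rose, 2 fell and 9 were not called, beside 8.19% and 9.09% of named genes called higher and lower. GSTU16 (AT1G59700) rose 2.90-fold. GSTU20 (AT1G78370) read 11.40, 11.39 and 8.91 against 12.40 to 12.47 in WT, a change of −1.86 (adjusted p = 0.0166), or −1.04 without spch replicate 4.

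The largest rise among named genes belonged to AT1G19530, a member of the hypoxia core list, whose genes respond to low oxygen in many cell types. It read 4.16, 4.30 and 4.35 in WT, all background, and 9.34, 9.11 and 9.54 in spch, at least 20.2-fold higher (adjusted p = 1.78e-06). Of 20 measured members of the list (39 listed) 5 rose and 3 fell, with a median of 0.07, and 5 rose and 2 fell without spch replicate 4. The other members that rose were AT4G27450 (6.10-fold), AT4G39675 (6.07-fold), AT3G10020 (3.33-fold) and AT1G33055 (2.54-fold). Those that fell were AT5G66985 (3.29-fold), AT3G03270 (1.32-fold) and AT4G17670 (at least 1.37-fold), the last not called without spch replicate 4 (adjusted p = 0.157). PDC2 (AT5G54960), pyruvate decarboxylase of fermentation, gave 0.11 (adjusted p = 0.724), and HRA1 (AT3G10040), a regulator of the low-oxygen response, lay near background in both genotypes. HIS1-3 (AT2G18050), a linker histone known to rise in stress and singled out after its values were seen, went from 5.11, 5.01 and 4.73 to 8.83, 7.85 and 8.57, at least 10.8-fold higher (adjusted p = 0.00024).

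Genes of the cold response that encode chloroplast protectants fell. COR15A (AT2G42540) read 9.46, 9.51 and 8.32 in WT and 5.39, 5.15 and 4.49 in spch (17.0-fold, adjusted p = 0.00148). In COR15B (AT2G42530) the WT arrays ranged from 7.85 to 10.14, and its call ended without WT replicate 2 or 3 (adjusted p up to 0.0650). The other 3 measured cold genes were not called, and COR27 (AT5G42900), a clock-linked gene singled out after its values were seen, rose 4.28-fold, so the cold-linked genes did not move as 1 group.

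Genes of photosynthesis had few calls. Of 7 measured genes for the photosystems and light harvesting, read between 8.47 and 13.70 in WT, 1 fell and none rose, with a median of −0.06, and none of 3 Calvin cycle genes was called by limma (0.20, 0.15 and −0.06 for PRK, RCA and SBPASE), with 0 at an unadjusted p under 0.05. The gene that fell, LHCB4.3 (AT2G40100), a minor antenna protein, gave −0.69, and was not called without spch replicate 4 or WT replicate 2 (adjusted p = 0.0700 and 0.081). With the replicate block LHCB4.2 (AT3G08940) was called as well (−0.52, adjusted p = 0.0101 against 0.0764). PORB (AT4G27440), which makes chlorophyllide in the light, fell 2.51-fold, from 12.27, 12.28 and 11.73 to 10.81, 10.88 and 10.62 (adjusted p = 0.000312). In photorespiration, which recovers carbon lost in the light, HPR (AT1G68010), hydroxypyruvate reductase, rose by 0.49 (not called without WT replicate 3 or spch replicate 2 or 3) and AT1G80380, another listed member, by 1.03.

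The genes of the plastid's own genome lay slightly higher in spch. Of 69 measured, 63 had a spch mean above the WT mean, and the median change was 0.40, but 9 rose and none fell in limma's test, beside 8.19% of named genes called higher (19 higher and 0 lower at an unadjusted p under 0.05). With the replicate block 28 passed, without spch replicate 4 there were 11, and with the 25S rRNA value as a covariate 2. The family was formed after the data were seen. The RNA was copied from poly(A) tails with an oligo-dT primer, which plastid transcripts largely lack, and the 25S rRNA control, which also lacks one, was higher on the same arrays, at 9.63 on average against 7.11 in WT. The part of priming in this difference was not tested.

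Among them rpoA, a subunit of the plastid's RNA polymerase, read 11.01, 11.33 and 10.98 in WT and 11.87, 11.88 and 11.69 in spch, with no overlap (0.70 ± 0.13 SE, adjusted p = 0.00211). The ribosomal protein genes rpl36 and rpl20 rose by 0.79 and 0.99, and ndhI, of the NDH complex, by 0.65, the last not called when any 1 of 4 arrays was left out. Unlike the breakdown genes, these were not highest on spch replicate 4, which was the lowest spch array for rpoA, rpl36, rpl20 and ndhI.

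**Figure D5:**
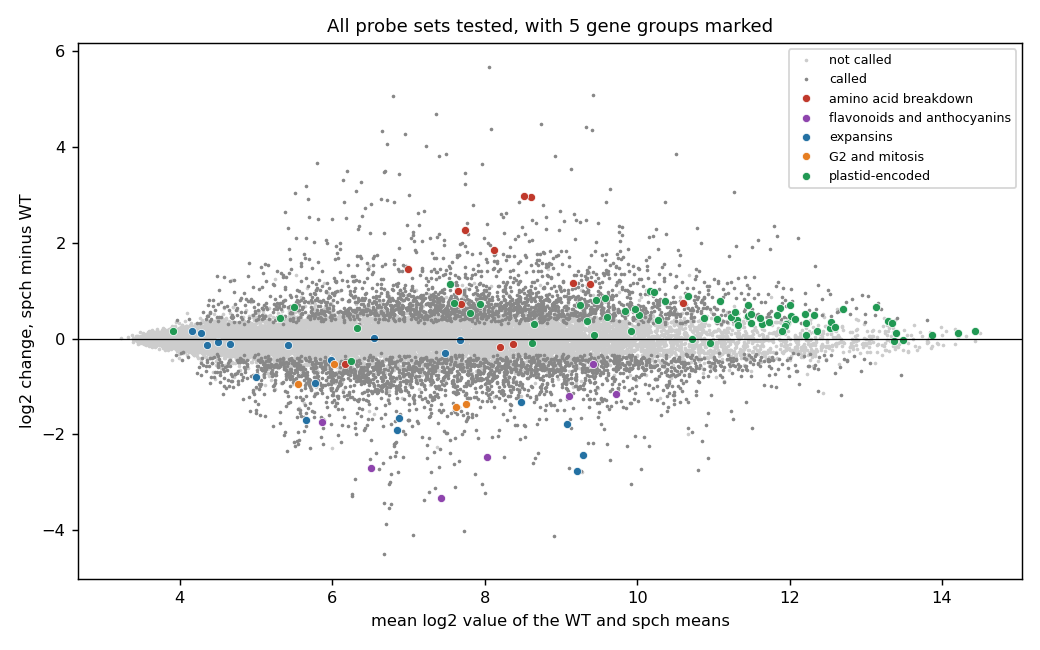
Log2 change, spch minus WT, against the mean of the 2 genotypes' means for all 22746 probe sets, with called probe sets in darker grey and 5 gene groups in colour. Genes of amino acid breakdown reach 2.97 and those of flavonoids −3.32, while the plastid-encoded genes form a band with a median of 0.40.

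Beyond the groups, several genes with large changes are named in the reference by locus only. AT1G09500 rose from background to 7.25, 7.29 and 8.35 (at least 6.23-fold, adjusted p = 2.2e-06), and AT3G04000 rose 10.8-fold. AT4G15660, AT4G15680, AT4G15690 and AT4G15700, neighbours in locus number whose probe sets may share signal, all rose, AT4G15660 at least 13.6-fold, AT4G15680 16.2-fold and AT4G15690 14.5-fold. Among the falls, AT4G11190 went from 8.53, 8.14 and 8.51 to 5.33, 5.12 and 4.44, and AT1G66100 fell 17.5-fold. Prx37 (AT4G08770), a wall peroxidase, fell 5.44-fold, from 8.23, 8.13 and 7.76 to 5.68, 5.78 and 5.33. Its differences from scrm-D and scrm-D;mute were −4.00 and −3.08 (adjusted p = 1.1e-06 and 4.1e-06). Of 6 measured class III peroxidases 2 fell and 1 rose, beside 9.09% and 8.19% of named genes.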

How the data were processed

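RNA of 12 whole-seedling samples was reverse-transcribed from an oligo-dT primer and hybridised to 1-colour arrays, per the labels' protocols. The deposited values were log2 expression values of 22810 probe sets, already normalized by the authors with RMA, and RMA and limma are listed, with no version, in the submitters' processing notes. They were used as deposited, without 64 control probe sets. limma 3.58.1 in R 4.3.3 was fitted to 22746 probe sets over 12 arrays, with 1 mean for each of 4 genotypes, empirical Bayes variances and two-sided tests adjusted by Benjamini-Hochberg, and it was tested on simulated data. The spch arrays were compared with WT and, directly, with scrm-D and scrm-D;mute.

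Of the probe sets, 13513 carried 1 gene in the platform annotation, 503 several and 8794 none listed. Through the reference table (TAIR10.1), 13436 of the first matched a locus, which left 13286 genes, each represented by its probe set with the highest mean over 12 arrays. Only genes of this set are named. Background was the 95th percentile of 261 values of absent control transcripts, 4.99.

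Genes named in the text were SPCH, MUTE and FAMA, the largest changes and smallest adjusted p, and members of 32 gene lists (545 members, 86 measured) and 50 families, with up to 6 members of a list or family chosen by adjusted p. Members and lists were chosen with earlier results of these data known. A further 2 lists (amino acid breakdown, fat mobilisation) and 8 families (among them GH9, TBL, IQ-domain, UGT73 and plastid-encoded genes) were added after values were seen, as were genes said to be singled out, and further members of a described family are named to account for its calls. Families were matched on reference symbols and synonyms, and the thionin family's match was corrected after the values were seen. Of the 13286 named genes, 1535 had a symbol other than the locus. A family's count thus covers the members matched in this way and does not stand for the whole family.

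Replicate numbers 2, 3 and 4 occur in every genotype, and no label gives their meaning. Deviations of same-numbered spch and WT arrays from their group means correlated with r of 0.138, 0.173 and 0.174, against −0.229 to 0.102 for other pairs. The limit set for pairing was 0.1, which the highest of the other pairs also passed. The numbers may thus pair the arrays, and a fit with the replicate number as a block was run as an alternative. Calls in the text come from the fit without this block unless the block is named. Alternatives were the 6 arrays alone, array weights, a variance trend, a filter on low values, other normalizations, the 25S rRNA value as a covariate and leaving out arrays.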

Additional observations from a re-analysis of the deposited data

Results flagged for a closer look

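A pair of control measurements outside the gene comparison differed between the genotypes. The 25S rRNA control probe set averaged 9.63 on the spch arrays against 7.11 on the WT arrays. The added control transcript lys had a median of 12.5 on the spch arrays and 3.89 on the WT arrays, while dap had 13.5 on the WT arrays and 3.98 on the spch arrays. The gene results with the 25S rRNA value as a covariate are given with the alternatives, and the part of the added transcripts was not tested.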

How the results depend on the processing

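With the replicate number as a block, 2654 probe sets were called higher and 2762 lower, and it moved cytokinin response genes that fell from 1 to 2, TBL genes that rose from 1 to 2, sugar carriers that fell from 2 to 3 and thionins and defensins that fell from 3 to 4, glycosyltransferases from 9 higher and 4 lower to 11 and 6, and expansins and carboxypeptidase-like genes that fell from 9 to 10 each. Leaving out 1 array gave from 1501 to 1982 higher and from 1454 to 1923 lower calls, the lowest both times without spch replicate 4. The ranges were 0 to 2 for the members of the replication list that fell and 2 to 4 for tubulins. With the 25S rRNA value as a covariate, 1106 were called higher and 1002 lower. In that fit 0 replication genes fell, with 1 stomatal regulator, 2 XTH genes, 3 GH9 genes, 3 TBL genes, 5 carboxypeptidase-like genes and 2 tubulins, and 5 glycosyltransferases rose, while 0 glucosinolate genes and 1 IQ-domain gene fell and 2 UGT73 genes rose. The covariate is confounded in part with the genotype, since it was higher on every spch array than on every WT array. Without replicate 4 of every genotype 1 replication gene fell. Asking in addition for a 2-fold change left 2 mitotic genes, 0 replication genes, 1 stomatal regulator, 2 GH9 genes, 2 TBL genes, 3 carboxypeptidase-like genes and 1 tubulin. No named result changed its direction and its call together under any alternative run. Centring each array on its median gave 2468 higher and 1954 lower. The 3 arrays a genotype limit the precision, and signals under 4.99 cannot be told from background.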
